A study of Mus musculus with 20 samples.

Results

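The genes described here are 9 negative-feedback and transcription factor genes downstream of FGF and ERK: the phosphatases Dusp4 and Dusp6, the Sprouty genes Spry1, Spry2 and Spry4, the Spred genes Spred1 and Spred2, and the ETS factors Etv4 and Etv5. They were chosen by name out of 21361 genes in the count table. All 9 were among the 16363 genes with enough reads to be tested.

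Poly(A) RNA of 20 libraries from 15 mouse cell lines was sequenced, in a series on what primordial germ cells can become after injection into early embryos. Of these, 15 libraries came from embryonic stem cells (ESCs) or from ESC-like lines named for primordial germ cells (PGC-ESCs), and 5 from epiblast-like cells (EpiLCs). The strain label C57Bl6J covers the wildtype ESC Host lines (n = 4), derived from host embryos, and the PGC-ESC lines labelled with a double knockout of Puma and Noxa (PGC-ESC DKO, n = 3). The EpiLC libraries are in vitro derivatives of 2 of these Host lines, numbers 3 and 4 (EpiLC Host), and of each of the 3 DKO lines (EpiLC DKO). The strain label C57Bl6J/129SvEvRoEp covers 5 PGC-ESC lines without Bax (PGC-ESC BaxKO), 2 earlier ESC lines without Bax (ESC BaxKO) and 1 heterozygous ESC line (ESC BaxHet). Strain label and Bax genotype therefore cannot be told apart. The routine ESC medium given in the labels, 2i/LIF, holds LIF, the GSK3 inhibitor CHIR99021 and the MEK inhibitor PD0325901; for EpiLCs, the sources used here give neither the medium nor the length of the conversion. A line has 1 library per state, so p-values measure the spread between lines.

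FGF ligands bind receptor tyrosine kinases, which switch on Ras, Raf, MEK and ERK in turn. Active ERK induces its own brakes: Dusp6 and Dusp4 encode phosphatases that remove phosphate from ERK, and Sprouty and Spred proteins act further upstream on Ras and Raf. Etv4 and Etv5 encode ETS transcription factors that are commonly read as targets of FGF signalling. In mouse ESCs, FGF4 acting through ERK promotes exit from the naive state, which is why a MEK inhibitor is used to hold it.

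The library totals ran from 14255399 to 33376660 counts. Bax was at 1.66 to 2.43 CPM in the BaxKO lines and at 283 to 533 CPM in ESC Host, where CPM is the count scaled to the library total. Pmaip1, which encodes Noxa, was at 1.26 to 4.35 CPM in PGC-ESC DKO and 20.2 to 52.7 CPM in ESC Host. It was also low in some lines without the DKO label, at 6.27 to 9.54 CPM in ESC BaxKO and 4.34 to 43.4 CPM in PGC-ESC BaxKO. In EpiLCs it was at 314 to 333 CPM in Host and 3.86 to 5.69 CPM in DKO lines. Bbc3, which encodes Puma, was at 27.5 to 49.2 CPM in PGC-ESC DKO and 38.5 to 49.7 CPM in ESC Host; the sources used here do not say where the deletion lies relative to the counted exons, so Bbc3 does not check the label. The 9 naive markers tested, such as Klf4 and Esrrb, were lower in EpiLCs in both conversions, and 6 of 7 formative markers were higher in each. The 3 core markers, Pou5f1, Sox2 and Nanog, were also called lower in both, with a median log2 fold change of -2.59 in Host and -2.62 in DKO lines. The summed level of 3 neuroectoderm markers was 2.33 to 7.14 CPM over the ESC and PGC-ESC libraries and 45.2 to 111 CPM in EpiLCs. That of 5 fibroblast markers was 1.71 to 15.6 CPM and 15.3 to 22.6 CPM, ranges that meet. Postn was at 0 in every group but EpiLC DKO. None of 6 primitive endoderm markers was called in either conversion. Of 4 mesendoderm markers 1 was higher and 2 were lower in each, and no trophoblast marker was called higher. Whether cells of other types were present, and their part in the results below, was not tested. Rn45s, a ribosomal RNA precursor, was above 10000 CPM in 11 libraries, among them all EpiLC and PGC-ESC DKO libraries, ESC Host 3 and 4 and ESC BaxKO 2, and it was highest among ESC-type libraries in ESC Host 4 (51925 CPM) and PGC-ESC DKO 2 (45205 CPM).

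The promoter sequences below are shown for the gene that rose most in the Host conversion, the one with no call in either conversion and the one that was lower in both, from 250 bases before to 50 after the start, in RefSeq on GRCm38.p6, which is the same assembly as the mm10 build named by the submitters. The table holds a promoter for 6 of the 9 genes. Capitals mark the ETS core, CCGGAA on either strand; the other letters are lower case. Dusp6 is at chr10:99262981-99263280 on the plus strand, Spry2 at chr14:105896770-105897069 on the minus strand and Etv5 at chr16:22439521-22439820 on the minus strand.

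Dusp6: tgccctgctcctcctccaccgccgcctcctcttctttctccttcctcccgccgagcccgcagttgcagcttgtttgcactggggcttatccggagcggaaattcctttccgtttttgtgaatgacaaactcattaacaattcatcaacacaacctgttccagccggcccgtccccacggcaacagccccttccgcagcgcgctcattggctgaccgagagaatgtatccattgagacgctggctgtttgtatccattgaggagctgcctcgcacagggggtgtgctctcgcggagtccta

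Spry2: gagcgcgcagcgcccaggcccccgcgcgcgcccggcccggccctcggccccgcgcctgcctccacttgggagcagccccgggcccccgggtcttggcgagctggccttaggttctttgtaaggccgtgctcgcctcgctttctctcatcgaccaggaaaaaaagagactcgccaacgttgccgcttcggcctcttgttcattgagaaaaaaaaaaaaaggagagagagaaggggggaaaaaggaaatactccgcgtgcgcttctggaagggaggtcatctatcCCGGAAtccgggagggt

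Etv5: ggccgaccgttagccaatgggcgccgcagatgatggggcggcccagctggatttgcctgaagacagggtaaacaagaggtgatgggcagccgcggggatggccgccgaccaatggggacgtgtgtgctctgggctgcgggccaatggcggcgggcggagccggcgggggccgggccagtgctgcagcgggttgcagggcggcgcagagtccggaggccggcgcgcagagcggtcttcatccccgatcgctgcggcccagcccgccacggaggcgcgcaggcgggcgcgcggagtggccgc

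Of the 7 promoter windows of these 6 genes, 1 (Spry2) held the ETS core, which 14.9% of the 32851 promoters in the table hold. The AP-1 motif TGANTCA, the CRE motif TGACGTCA and the CArG box, searched on both strands, were in none of the 7; 7.81%, 1.79% and 1.63% of all promoters hold them. The promoters of Dusp6, Spry2 and Etv5 shown above were 57.3%, 62.7% and 74% G or C, against a median of 52.7% over the table. Etv5 has another window, not shown, at chr16:22438319-22438618, which was 60% G or C.

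Most of the 9 genes were higher in EpiLCs than in ESC-type lines of the same genotype. In Host lines, where 2 EpiLC libraries were set against all 4 ESC Host lines, 6 were higher, 1 was lower and 2 were not called; 22.4% of all tested genes were higher and 21.7% were lower, 44% in all, by edgeR's quasi-likelihood test at a Benjamini-Hochberg adjusted p under 0.05. In DKO lines 7 were higher, 1 was lower and 1 was not called, against 25.1% higher, 22.5% lower and 47.6% called of all tested genes. The median log2 fold change of the 9 was 1.53 in Host and 1.79 in DKO lines, beside -0.03 and 0.01 over all tested genes. In CPM, all 5 EpiLC libraries lay above all 15 ESC-type libraries for 6 of the 9 genes, a pattern found in 19.5% of tested genes. Against Host 3 and 4 alone, the lines that EpiLC Host came from, the counts were again 6 higher and 1 lower. In bulk RNA, fewer cells of a type and less RNA per cell cannot be told apart. Scaling by library totals in place of TMM moved the median of all genes from -0.03 to 0.11 in Host and from 0.01 to 0.21 in DKO lines.

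**Figure D1:**
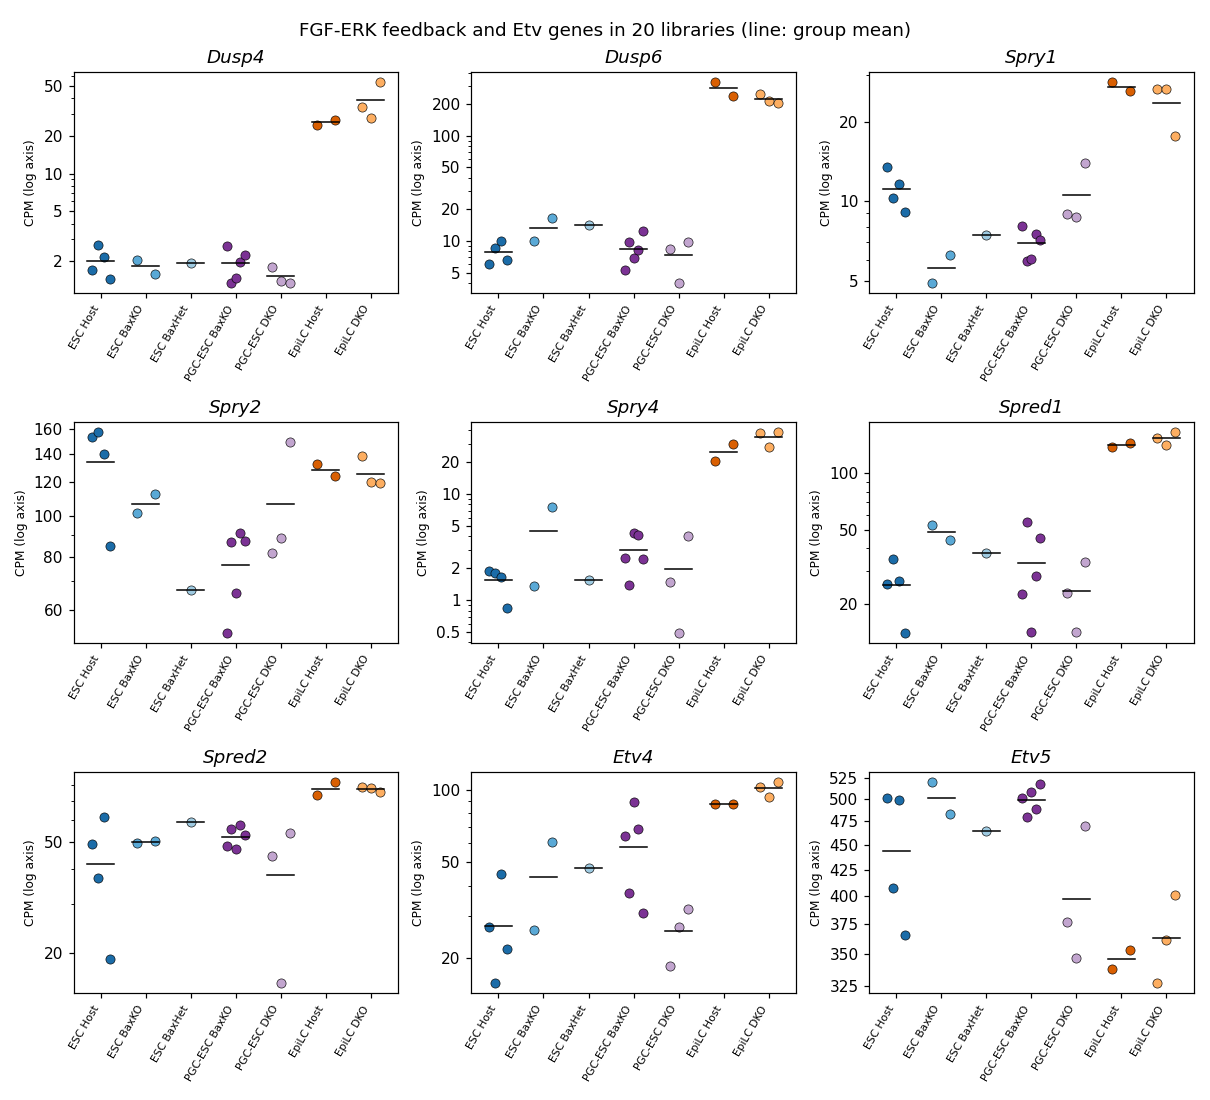
Level of each of the 9 genes in CPM (log axis, own range per gene) in the 20 libraries by group; points are libraries and lines are group means. EpiLC points lie above all ESC-type points for Dusp4, Dusp6, Spry1, Spry4, Spred1 and Spred2, and overlap them for Spry2, Etv4 and Etv5.

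Dusp6 (chromosome 10, 99263231 to 99267489), the cytoplasmic ERK phosphatase, changed most in the Host conversion. It was at 5.98, 8.49, 10.0 and 6.66 CPM in ESC Host 1 to 4 and at 326 and 240 CPM in EpiLC Host 3 and 4. In DKO lines 1, 2 and 3 it went from 8.33, 4.00 and 9.85 CPM to 252, 215 and 204 CPM. Every EpiLC library was far above every ESC-type library, whose highest value was 16.5 CPM in ESC BaxKO 2. By the fit over all libraries, the log2 change was 5.03 ± 0.32 (SE; edgeR adjusted p = 2.28e-09) in Host and 4.72 ± 0.34 (edgeR adjusted p = 1.08e-08) in DKO lines.

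Dusp4 (chromosome 8, 34807610 to 34819894), a nuclear phosphatase of the same family, was between 1.34 and 2.68 CPM over the 15 ESC-type libraries, with a median of 1.78 CPM. It was at 24.6 and 26.7 CPM in EpiLC Host and at 34.1, 27.7 and 53.9 CPM in EpiLC DKO. The groups did not overlap, and EpiLC DKO 3 was the highest library. The fitted log2 change was 3.54 ± 0.29 (edgeR adjusted p = 4.68e-08) in Host and 4.46 ± 0.32 (edgeR adjusted p = 1.08e-08) in DKO lines. The DKO response exceeded the Host response by 0.91 ± 0.42 on the log2 scale and was not called.

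Among the Sprouty genes, whose proteins restrain receptor tyrosine kinase signalling, Spry4 and Spry1 rose and Spry2 did not pass the test. Spry4 (chromosome 18, 38586247 to 38601347) was at 1.89, 1.80, 1.67 and 0.845 CPM in ESC Host and at 20.6 and 29.6 CPM in EpiLC Host. Lines DKO 1 to 3 went from 1.48, 0.491 and 3.99 CPM to 37.7, 27.7 and 38.4 CPM. All EpiLC libraries were above all ESC-type libraries; the lowest of the latter rested on 7 counts. The edgeR log2 estimate was 3.88 ± 0.57 (edgeR adjusted p = 3.37e-05) in Host and 3.96 ± 0.62 (edgeR adjusted p = 5.07e-05) in DKO lines.

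Spry1 (chromosome 3, 37639947 to 37644599) was at 13.6, 10.3, 11.6 and 9.10 CPM in ESC Host and at 28.3 and 26.1 CPM in EpiLC Host. The DKO lines went from 8.95, 8.70 and 14.0 CPM to 26.7, 26.6 and 17.7 CPM. Line DKO 3 began highest and ended lowest, so its ratio was 1.26, while the other 4 lines had ratios from 2.44 to 3.06. The log2 fold change was 1.15 ± 0.21 (edgeR adjusted p = 0.000235) in Host and 0.98 ± 0.21 (edgeR adjusted p = 0.000846) in DKO lines.

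Spry2 (chromosome 14, 105891947 to 105896819) was at 153, 157, 140 and 84.6 CPM in ESC Host and at 132 and 124 CPM in EpiLC Host. In DKO lines 1, 2 and 3 it was at 81.5, 88.4 and 149 CPM before and at 138, 120 and 119 CPM after conversion. The groups overlapped, and the EpiLC libraries spanned a narrower range (119 to 138 CPM) than the 15 ESC-type libraries (52.8 to 157 CPM). By the fit over all libraries, the log2 change was -0.18 with a 95% interval from -0.68 to 0.31 in Host lines, and 0.05 with an interval from -0.41 to 0.51 in DKO lines.

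The Spred genes encode relatives of the Sprouty proteins that bind the Ras regulator neurofibromin. Spred1 (chromosome 2, 117121071 to 117182279) was at 25.7, 34.8, 26.6 and 14.1 CPM in ESC Host and at 138 and 145 CPM in EpiLC Host. In DKO lines it went from 23.1, 14.3 and 33.7 CPM to 154, 142 and 166 CPM. The groups did not overlap, and the 5 EpiLC libraries were within 1.21-fold of each other, against 3.91-fold over the ESC-type libraries. The fitted log2 change was 2.36 ± 0.38 (edgeR adjusted p = 7.5e-05) in Host and 2.52 ± 0.39 (edgeR adjusted p = 5.47e-05) in DKO lines.

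Spred2 (chromosome 11, 19924442 to 20024026) was at 49.3, 37.1, 61.6 and 19.0 CPM in ESC Host and at 73.8 and 82.1 CPM in EpiLC Host. In DKO lines it was at 44.7, 15.6 and 53.8 CPM before and at 78.8, 78.5 and 75.7 CPM after conversion. The 2 lowest ESC-type libraries, ESC Host 4 and PGC-ESC DKO 2, were those with the most Rn45s reads, and their lines had EpiLC to parent ratios of 4.31 and 5.04 beside 1.20, 1.41 and 1.76 in the others. The edgeR log2 estimate was 0.77 ± 0.33 (edgeR adjusted p = 0.0691) in Host and 0.85 ± 0.33 (edgeR adjusted p = 0.0404) in DKO lines. With those 2 libraries left out, a choice made after seeing the data, it was 0.55 (edgeR adjusted p = 0.0206) and 0.45 (edgeR adjusted p = 0.0586), so the call passed from the DKO to the Host lines. Leaving out PGC-ESC DKO 2 alone gave 0.50 (edgeR adjusted p = 0.16), and leaving out ESC Host 3 gave 1.04 in Host lines (edgeR adjusted p = 0.0162). In DKO lines the call was also lost without any 1 of the EpiLC DKO libraries (0.84 to 0.85), with high Rn45s libraries alone (0.83) and at an adjusted p under 0.01; DESeq2 called it in Host lines (0.83, adjusted p = 0.0488).

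The ETS factor genes moved in opposite directions. Etv4 (chromosome 11, 101769747 to 101785310) was at 27.0, 15.7, 44.5 and 21.7 CPM in ESC Host and at 87.4 and 88.0 CPM in EpiLC Host. Lines DKO 1 to 3 went from 18.5, 26.9 and 32.0 CPM to 103, 94.0 and 108 CPM. Each EpiLC library was above all ESC-type libraries of its genotype, while PGC-ESC BaxKO 3, at 89.1 CPM, reached the EpiLC range. The log2 fold change was 1.53 ± 0.40 (edgeR adjusted p = 0.00446) in Host and 1.79 ± 0.40 (edgeR adjusted p = 0.00143) in DKO lines.

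Etv5 (chromosome 16, 22381313 to 22439570) was at 501, 407, 499 and 366 CPM in ESC Host and at 338 and 353 CPM in EpiLC Host. In DKO lines it was at 377, 347 and 470 CPM before and at 327, 361 and 401 CPM after conversion. The DKO groups overlapped; in CPM 4 of 5 EpiLC libraries were below their own parent and DKO 2 had a ratio of 1.04, which TMM scaling turned to 0.845. By the fit over all libraries, the log2 change was -0.50 ± 0.13 (edgeR adjusted p = 0.00505) in Host and -0.32 ± 0.12 (edgeR adjusted p = 0.0358) in DKO lines. Both calls were lost with library totals, at -0.36 (edgeR adjusted p = 0.0533) and -0.13 (edgeR adjusted p = 0.44), and with the compared groups alone. With the line as a block, the DKO value was -0.34 (edgeR adjusted p = 0.0698). The DKO call was also lost without EpiLC DKO 1, EpiLC DKO 2 or PGC-ESC DKO 3, and the Host call without EpiLC Host 3 (edgeR adjusted p = 0.0572).

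**Figure D2:**
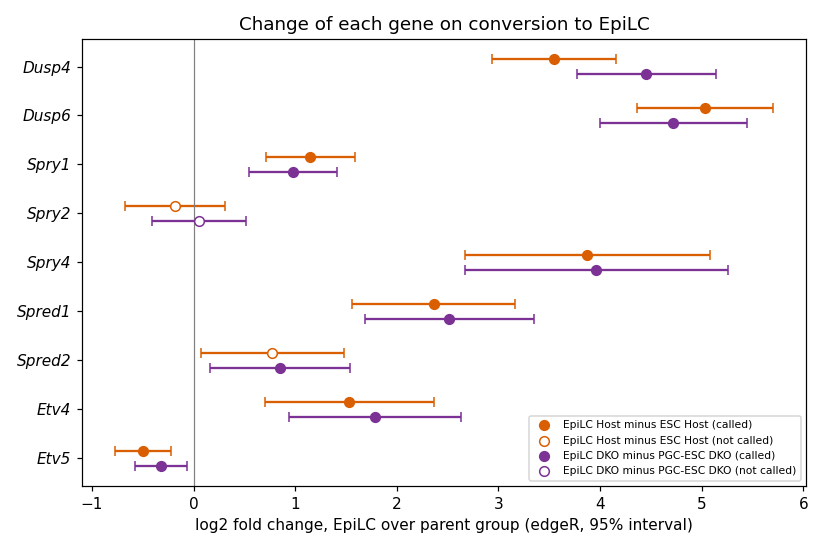
Log2 fold change of each gene from the ESC-type group of the same genotype to EpiLC with its 95% interval by edgeR, for Host (orange) and DKO lines (purple); filled points passed the adjusted threshold. The intervals of Dusp4, Dusp6 and Spry4 lie above 2 in both conversions, and those of Spry2 span 0.

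**Figure D3:**
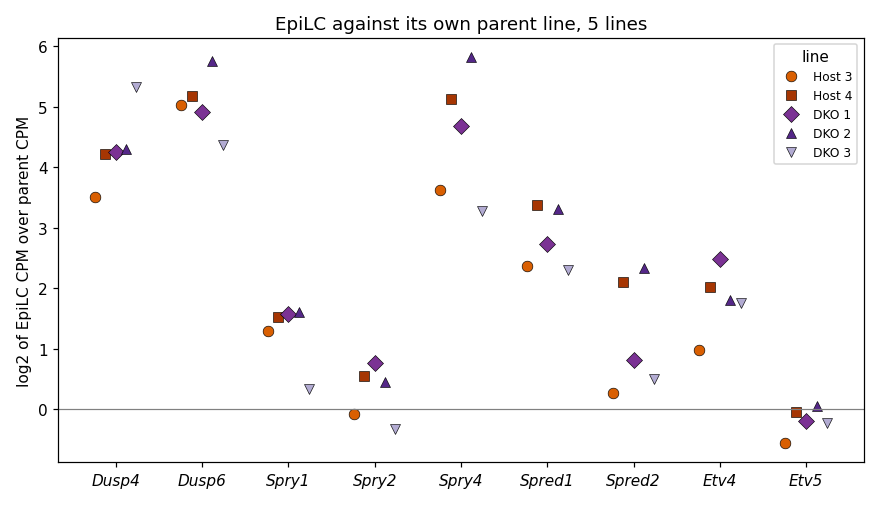
Log2 ratio of CPM in each EpiLC library to CPM in its own parent line for the 9 genes, 1 point for each of 5 lines. Spred2 points fall apart into lines Host 4 and DKO 2 (4.31 and 5.04 as ratios) and the other 3 lines, and Spry1 is lowest in DKO 3.

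Ordered by group mean CPM, the EpiLC groups came first for Dusp4, Dusp6, Spry1, Spry4, Spred1, Spred2 and Etv4, and last for Etv5. Among the ESC-type groups, neighbours in the order overlapped in their library ranges, with 4 exceptions that each involve the single ESC BaxHet library. It lay below PGC-ESC DKO for Spry1, below ESC BaxKO for Spred1, above PGC-ESC BaxKO for Spred2 and below PGC-ESC BaxKO for Etv5. The share of all tested genes with such gaps was not computed. Overlap does not show that groups are the same: PGC-ESC BaxKO and PGC-ESC DKO overlapped for Spry2 and were called different below. Groups that are not neighbours can be apart, as ESC BaxKO and ESC Host are for Spry1 below. With TMM-scaled CPM the order of the groups differed for Spry2, Spry4, Spred2 and Etv5.

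The responses of Host and DKO lines were then compared directly. None of the 9 genes was called for a difference in response, where 0.00611% of tested genes (1 gene) were, and DESeq2 called none. At an unadjusted p under 0.05, edgeR counted 1 of the 9, Dusp4, and 2.8% of all tested genes. Between EpiLC DKO and EpiLC Host none was called by edgeR or DESeq2, where edgeR called 0.0428% of tested genes. At an unadjusted p under 0.05 edgeR counted none of the 9 there, and 3.04% of all tested genes. Intervals were wide: that of the response difference ran from -1.65 to 1.83 for Spry4 and from -1.23 to 0.60 for Dusp6, on the log2 scale.

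Other genes of the pathway were read from lists that, like the 9 genes, were chosen with earlier results known. Of 4 FGF ligands 3 rose in both conversions: Fgf5, a formative marker (7.38 in Host and 7.17 in DKO lines, log2), Fgf8 (5.17 and 4.48) and Fgf15 (4.89 and 6.44). Fgf4, the ligand that ESCs themselves make, fell by 1.56 and 1.57. Of 12 receptors and partners 4 rose and 2 fell in each conversion, a share near the 44% and 47.6% of all tested genes called, with Fgfr2 (1.44 and 1.80), Ptpn11 (0.80 and 0.71) and Sos2 (1.22 and 0.99) up and the adaptor Grb2 down (-0.59 and -0.69). Fgfr1 was called higher in Host lines (0.60) and was not called in DKO lines (0.26). None of the 12 genes was called by edgeR for a difference in response between the DKO and Host conversions.

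Of 11 genes of the Ras to ERK cascade 3 rose in each conversion, and 1 fell in Host and 2 in DKO lines, which is also not above those shares. Braf (1.04 and 1.31) and Mapk3, which encodes ERK1 (0.80 and 0.81), rose in both. Of 10 other feedback genes tested 4 rose in Host and 5 in DKO lines and none fell. Of all tested genes 22.4% and 25.1% rose. The share called in either direction was near the 44% and 47.6% of all tested genes. Spry3 was in the list but not tested. Spred3 (2.75 and 2.78), Dusp5 (2.58 and 2.07), Dusp7 (0.87 and 0.78) and Il17rd, a receptor-like inhibitor of FGF signalling (1.19 and 1.04), rose in both. Dusp9, an X-linked ERK phosphatase, was called higher in DKO lines (2.26) and was not called in Host lines (1.62). In CPM, its EpiLC to parent ratios were 3.32 and 3.37 in lines Host 3 and 4, and 4.17 to 6.85 in DKO lines. None of the 10 genes was called by edgeR for a difference in response between the DKO and Host conversions.

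Of 13 other genes known to be induced by ERK 3 rose and 1 fell in Host lines, and 4 rose and 1 fell in DKO lines. In all this is a smaller share than the 44% and 47.6% of all tested genes called. Myc rose in both (3.23 and 2.89) and the ephrin receptor gene Epha4 fell by 4.10 and 3.97. Fosl1 (3.91) and Ier3 (1.44) were called in DKO lines and not in Host lines (1.66 and 0.74), and Etv1 in Host lines (0.65) and not in DKO lines (0.51). Egr1, an immediate early gene, was called in DKO lines (3.82) and not in Host lines (2.75); EpiLC DKO 3 was at 230 CPM beside 26.2 to 42.3 CPM in the other 4 EpiLC libraries. Tested as a difference in response between the DKO and Host conversions, none of Fosl1 (2.26), Ier3 (0.70), Etv1 (-0.14) and Egr1 (1.06) was called by edgeR; the smallest unadjusted p among them, for Fosl1, was 0.082 in that fit.

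Between ESC-type lines of different origin no call was made among the 9 genes. For PGC-ESC BaxKO against ESC BaxKO edgeR called 0.0367% of tested genes, and DESeq2 called none of the 9 either. At an unadjusted p under 0.05, edgeR counted 10% of all tested genes and 2 of the 9. These were Dusp6 (-0.65 with a 95% interval from -1.29 to -0.01) and Spry2 (-0.49, from -0.96 to -0.03). ESC BaxKO 1 and 2 had Y-linked reads, while PGC-ESC BaxKO 1, 3 and 4 had none and a raised X-linked level. Origin and sex chromosome pattern are therefore mixed in this comparison. PGC-ESC DKO and ESC Host differ in Puma and Noxa genotype as well as in origin, and these cannot be told apart. None of the 9 was called there by edgeR or DESeq2, where edgeR called 0.116% of tested genes. At an unadjusted p under 0.05 edgeR counted none of the 9, and 7.3% of all tested genes. In that comparison the log2 differences lay between -0.30 for Dusp4 and 0.39 for Spry4. The widest interval, for Spry4, ran from -0.79 to 1.57, and the narrowest, for Etv5, from -0.33 to 0.15.

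Between strain and genotype sets, Spry1 was lower in lines without Bax, but not in these alone. ESC BaxHet, which has their strain label and Bax at 110 CPM, had Spry1 at 7.46 CPM. This was within the range of PGC-ESC BaxKO and below all ESC Host and PGC-ESC DKO lines. ESC BaxKO 1 and 2 had 4.91 and 6.27 CPM, below all 4 ESC Host lines (log2 fold change -1.07 ± 0.23, edgeR adjusted p = 0.0132), where 5.02% of tested genes were called. PGC-ESC BaxKO 1 to 5 had 8.10, 5.93, 6.06, 7.55 and 7.13 CPM, below all 3 PGC-ESC DKO lines (-0.75 ± 0.18, edgeR adjusted p = 0.0087), where 23.6% of tested genes were called. Without PGC-ESC DKO 3 the second difference was -0.55 (edgeR adjusted p = 0.0589), and the first was lost without either ESC BaxKO line, within each Rn45s set and with the compared groups alone in the fit (edgeR adjusted p = 0.108); under all alternatives run it stayed between -1.26 and -0.88. All PGC-ESC BaxKO libraries were low and all PGC-ESC DKO libraries high in Rn45s reads, so genotype, strain label and Rn45s level cannot be told apart. Sex chromosome pattern is mixed in as well. The mean level of Y-linked genes was 61.1 and 47.0 CPM in ESC BaxKO 1 and 2. ESC Host 1 to 3 had no such reads and ESC Host 4 had 3.84 CPM. PGC-ESC DKO 3 was at 42.8 CPM, while PGC-ESC DKO 1 and 2 had none.

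Spry2 was lower in PGC-ESC BaxKO than in PGC-ESC DKO (-0.62 ± 0.19, edgeR adjusted p = 0.0286). PGC-ESC BaxKO 1 to 5 had 52.8, 86.5, 65.6, 90.8 and 87.2 CPM, and PGC-ESC DKO had 81.5, 88.4 and 149 CPM, so the groups overlapped. Without PGC-ESC DKO 3 it was -0.35 (edgeR adjusted p = 0.214), and with library totals -0.47 (edgeR adjusted p = 0.114). The call was also lost without PGC-ESC BaxKO 1 (-0.51), PGC-ESC BaxKO 3 (-0.57) or PGC-ESC DKO 2 (-0.70). Etv4 was 1.01 ± 0.36 higher in PGC-ESC BaxKO (edgeR adjusted p = 0.0524), and was called by DESeq2 (adjusted p = 0.0275), and by edgeR without PGC-ESC BaxKO 2 (1.13) or PGC-ESC BaxKO 5 (1.17).

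The 9 genes did not vary as a block among the ESC-type libraries. Over the 15 libraries the 36 pairwise Pearson correlations of log2 CPM had a median of 0.07 and ran from -0.53 (Spry2 with Etv4) to 0.71 (Dusp6 with Spred1). Etv5 was the steadiest, from 347 to 520 CPM, and Spry4 the most variable, over 15.5-fold. The genes most like each, by Pearson r over the same 15 libraries among all other tested genes, included Bcl9 for Spred1 (0.95), Klf5 for Spred2 (0.96), Dnmt3l for Spry2 (0.92), Cited2 for Spry1 (0.94) and Ahdc1 for Dusp6 (0.88). These values are the highest of many and share libraries, depth and strain label.

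Dusp9 is an ERK phosphatase gene on the X chromosome, and it varied from 11.3 to 224 CPM among these libraries. Spred1 was lower where Dusp9 was higher: Pearson r was -0.83 (permutation p = 0.00022, adjusted over 16347 genes 0.00801) and Spearman rho -0.825 (permutation p = 0.00032, adjusted 0.0139), from 100000 permutations, two-sided. By the same adjusted threshold 9.67% of all genes were related to Dusp9, and 1.21% had an r as low. Without the 2 libraries farthest from the Dusp9 median, r was -0.75. It was -0.49 among the 7 libraries with the C57Bl6J label and -0.94 among the 8 with the other label. Among the libraries low and high in Rn45s it was -0.91 and -0.74. The permutations treated the libraries as exchangeable, though they share groups, strain labels and sex chromosome patterns. The libraries lowest in Dusp9, ESC BaxKO 1 and 2 and PGC-ESC BaxKO 2 and 5, had Y-linked reads. The highest, PGC-ESC BaxKO 1 and 3, had none and a raised X-linked level. Lines with the C57Bl6J label did not show this pattern. PGC-ESC DKO 3 had Y-linked reads and Dusp9 at 51.9 CPM, and ESC Host 4 had few and 62.7 CPM. Those without Y-linked reads ran from 17.5 CPM in ESC Host 2 to 112 CPM in ESC Host 1. The p-values do not separate Dusp9 from groups, strain labels and sex chromosome patterns. For Dusp6 r was -0.62 and rho -0.62 (permutation p = 0.0144 and 0.0165, adjusted 0.0964 and 0.12), and for Etv4 0.49 and 0.51 (permutation p = 0.0618 and 0.0562, adjusted 0.239 and 0.231). Within the C57Bl6J label r was -0.29 for Dusp6 (-0.73 within the other label). For Etv4 r was 0.73 among libraries low in Rn45s and -0.51 among those high in it, so its direction turned. The other 6 genes had r between -0.32 and 0.35, with permutation p from 0.201 to 0.947.

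**Figure D4:**
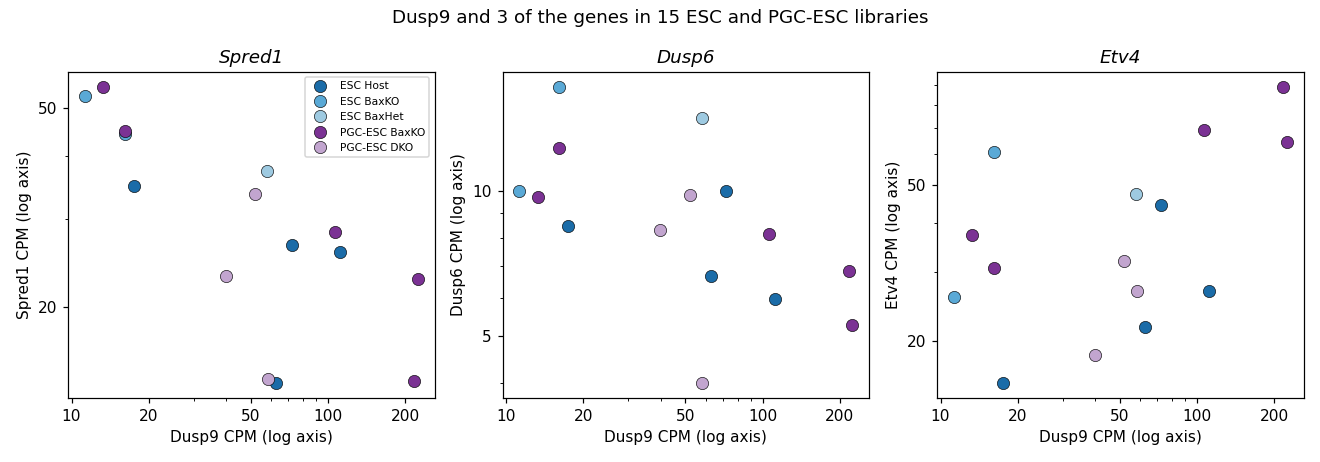
Spred1, Dusp6 and Etv4 against Dusp9 in CPM (both axes logarithmic) in the 15 ESC and PGC-ESC libraries, coloured by group. Spred1 is at 44.2 to 55.1 CPM in the 4 libraries with Dusp9 below 17 CPM and at 34.8 CPM in the next, ESC Host 2 (Dusp9 17.5 CPM); it is at 14.2 to 28.2 CPM in the 4 with Dusp9 above 100 CPM.

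Within PGC-ESC BaxKO, lines 1, 3 and 4 had no reads from the Y-linked genes and a raised level of X-linked genes. For this level, the log2 CPM of each gene was taken as its deviation from its own mean over the ESC-type libraries. The median deviation of X-linked genes less that of autosomal genes was 0.76, 0.73 and 0.70 in these lines. Lines 2 and 5 had Y-linked reads and values of -0.16 and -0.21. This split was seen in the data and is not a group of the study. Spred1 was at 22.8, 14.2 and 28.2 CPM in lines 1, 3 and 4 and at 55.1 and 45.0 CPM in lines 2 and 5. Etv4 was at 64.6, 89.1 and 69.1 CPM against 37.4 and 30.7 CPM, and Dusp6 at 5.28, 6.85 and 8.15 CPM against 9.75 and 12.3 CPM. Spry4, at 2.52, 4.34 and 4.08 CPM against 1.41 and 2.46 CPM, also did not overlap, which makes 4 of the 9 genes where 49.8% of all tested genes did not overlap.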

How the data were processed

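Poly(A) RNA-seq of 20 libraries was read from the gene count table the authors deposited, which holds whole-number counts for 21361 genes. Reads were aligned with STAR 2.7.7a to mm10, per the submitters' processing notes; the counting tool and annotation were not given in the sources used here. Groups came from the titles and genotype labels. Counts were fitted with edgeR 4.0.16 in R 4.3.3 (TMM, filterByExpr, 1 coefficient for each of 7 groups, 13 residual degrees of freedom, quasi-likelihood F test, two-sided), and p-values were Benjamini-Hochberg adjusted over 16363 tested genes and called under 0.05. SE is the log2 fold change over the square root of F. CPM is per library total; correlations used log2 CPM after TMM with a prior count of 2. The fits were tested on simulated data for both conversions, PGC-ESC BaxKO against ESC BaxKO and PGC-ESC DKO against ESC Host. They recovered 45% to 57% of 2-fold changes and 85% to 87% of 4-fold changes, so a gene not called may still differ. The difference in response was not simulated. Library totals of 14255399 to 33376660 counts limit the precision of low genes such as Spry4.

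Host and DKO EpiLC libraries carry the number of the line they were made from, per the titles and the design text. Numbers therefore pair them with their parents. Deviations of paired libraries from their group means correlated at 0.11, 0.12 and 0.09 in DKO lines and 0.18 in Host lines. The Host lines give a single value, because deviations of 2 libraries from their mean mirror each other. Libraries of different lines were not set against each other, so these values do not check the pairing. The replicate pairs within groups differed by more than sampling noise (chi-square per gene 5.63 to 181 over 24 pairs). The 9 genes and all lists were chosen with earlier results of these data known. All 9 were named, with up to 4 genes per pathway list by smallest adjusted p in either conversion, a preset few whatever their values, and the genes most like each; some genes that this rule names are not reported here. Permutation p-values for the relation to Dusp9 were adjusted over all genes with varying levels rather than over the 9. Alternatives were other scaling, DESeq2 1.42.0, no low-count filter, the compared groups alone, a stricter threshold, blocks, parent lines alone and leaving out each library. Libraries split by Rn45s at 10000 CPM, and the 2 with most Rn45s left out, were added after seeing the data. Protein sequences were not used here.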

Additional observations from a re-analysis of the deposited data

How the results depend on the processing

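In both conversions Dusp4, Dusp6, Spry1, Spry4, Spred1 and Etv4 kept their direction and their call under all alternatives run. The count called higher was 6 to 7 in both conversions under all alternatives run, the difference being Spred2. The count of genes called lower, 1 in each conversion (Etv5), went to 0 with library totals and with the compared groups alone in both. In DKO lines it also went to 0 at an adjusted p under 0.01, with no low-count filter, with the line as a replicate block and with high Rn45s libraries alone. Leaving out 1 library at a time gave 0 to 1 in both. The count lower in ESC BaxKO than in ESC Host, 1 (Spry1), went to 0 at an adjusted p under 0.01, with the compared groups alone, with the replicate number as a block and within either Rn45s set, and ran from 0 to 1 with 1 library left out. The count lower in PGC-ESC BaxKO than in PGC-ESC DKO, 2, was 1 at an adjusted p under 0.01, with library totals and with the compared groups alone, 0 with the replicate number as a block, and 0 to 2 with 1 library left out. The count higher there, 0, was 1 (Etv4) with library totals, with no filter and with DESeq2, and 0 to 1 with 1 library left out. The causes were not tested. Numbers outside the conversions name different lines and pair nothing. No paired analysis was possible for EpiLC DKO against EpiLC Host because they share 1 number. The line block changed no other call. With TMM-scaled CPM, 57 group levels moved by less than their SD and 6 by more, with the single ESC BaxHet library held against its counting interval instead. Of the r values with Dusp9 under alternatives, 21 moved by 0.2 or more; that of Spred1 stayed between -0.94 and -0.49. Where 1 library is left in a group, it is assumed to vary like the other groups. Depth limits Spry4, with 7 counts in its lowest library.

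Of 72 log2 fold changes, 25 changed sign under at least 1 alternative, 80 times in all, and in none of these was either value called. With the line as a replicate block, the Host conversion gave 0.0025 for Spry2 and the difference in response gave -0.0652 for Spred1. With the 2 ESC-type libraries with most Rn45s reads left out, the DKO conversion gave -0.0772 for Spry2, the difference in response gave -0.10 for Spred2 and -0.21 for Spry4, PGC-ESC DKO against ESC Host gave 0.26 for Dusp6, 0.0861 for Spred1, 0.10 for Spred2 and 0.0655 for Spry1, ESC BaxKO against ESC Host gave -0.005 for Spred2 and PGC-ESC BaxKO against PGC-ESC DKO gave -0.23 for Dusp6 and -0.0596 for Spred2. With Host 3 and 4 as the only ESC Host lines, the difference in response gave -0.0583 for Spred1 and -0.0978 for Spry4. With high Rn45s libraries alone, the difference in response gave -0.0623 for Spred1 and -0.0877 for Spry4 and PGC-ESC DKO against ESC Host gave 0.20 for Spred1. With library totals, EpiLC DKO against EpiLC Host gave -0.0048 for Spred2. With low Rn45s libraries alone, PGC-ESC BaxKO against ESC BaxKO gave -0.10 for Dusp4 and 1.09 for Spry4 and ESC BaxKO against ESC Host gave -0.40 for Spry4. With RLE scaling, PGC-ESC DKO against ESC Host gave 0.0065 for Dusp6, 0.0047 for Spred1 and 0.005 for Spry1. With DESeq2, PGC-ESC DKO against ESC Host gave 0.0004 for Dusp6, 0.0043 for Etv4, 0.0051 for Spred1 and 0.0007 for Spry1. With the compared groups alone, PGC-ESC DKO against ESC Host gave 0.0023 for Etv4, 0.0048 for Spred1 and 0.0066 for Spry1. With the replicate number as a block, PGC-ESC DKO against ESC Host gave 0.063 for Etv4 and -0.0617 for Spry4 and PGC-ESC BaxKO against PGC-ESC DKO gave -0.17 for Dusp6. The other sign changes came with 1 library left out. In PGC-ESC BaxKO against ESC BaxKO the range was -0.11 to 0.24 for Dusp4, -0.0978 to 1.14 for Etv4, -0.0702 to 0.0196 for Etv5 and -1.40 to 1.08 for Spry4. In PGC-ESC BaxKO against PGC-ESC DKO the range was -0.21 to 0.24 for Dusp6 and -0.035 to 0.60 for Spred2. In PGC-ESC DKO against ESC Host the range was -0.21 to 0.24 for Dusp6, -0.23 to 0.32 for Etv4, -0.30 to 0.21 for Spred1, -0.35 to 0.28 for Spred2, -0.23 to 0.0845 for Spry1 and -0.46 to 0.80 for Spry4. In ESC BaxKO against ESC Host the range was -0.16 to 1.08 for Etv4, -0.0022 to 0.48 for Spred2 and -0.25 to 2.24 for Spry4. In the difference in response the range was -0.0965 to 0.46 for Etv4, -0.0754 to 0.44 for Spred1, -0.28 to 0.36 for Spred2, -0.28 to 0.0316 for Spry1 and -0.32 to 0.94 for Spry4. In EpiLC DKO against EpiLC Host the range was -0.0131 to 0.16 for Etv5, -0.0668 to 0.0838 for Spred2 and -0.0841 to 0.0348 for Spry2. In the DKO conversion the range was -0.10 to 0.32 for Spry2.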
